A study of Rattus norvegicus with 18 samples.

Results

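The extensor digitorum longus, a fast-twitch muscle of the lower leg, was compared between granddaughters of high-fat-fed male rats that ate a high-fat diet themselves and granddaughters of such males that ate chow. The members were the 8 arrays whose source label gives a high-fat diet for the grandfather, of 18 arrays in the series, and the comparison was followed across 12642 genes. All animals were adult Sprague-Dawley females of the F2 generation, and each array carried muscle RNA of a separate animal, by the animal numbers in the titles. The 4 animals of the high-fat/chow group (grandfather high-fat-fed, own diet chow) and the 4 of the high-fat/high-fat group (both high-fat) share the lineage, and differ in 12 weeks of their own feeding with chow or with a diet in which fat gave 42 or 45% of the energy. For comparison, the 10 granddaughters of chow-fed males, 5 on chow (chow/chow) and 5 on the high-fat diet (chow/high-fat), are called the chow lineage. The labels give neither the number of founder males, the litters nor the age in numbers, so relatives may be among the animals, and whole muscle was used, with its vessels, nerve, connective tissue and blood.

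A muscle takes up fatty acids from the blood, stores them as triglyceride in lipid droplets, or activates them to coenzyme A esters that pass through the carnitine shuttle into mitochondria for beta-oxidation. Peroxisomes shorten other acyl chains. When fat supply is high, fatty acids act as ligands of the peroxisome proliferator-activated receptors (PPARs), which raise transcription of many genes of these steps, and the enzymes that gate glucose oxidation are held back.

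The 8 arrays had deposited median intensities from 60.21 to 73.97, and the high-fat/chow replicates 1 and 2, at 62.28 and 60.21, were the lowest. On the first principal component, 24% of the variance, high-fat/high-fat replicates 3 and 4 stood at 14.0 and 15.8 and the other animals between -9.98 and -0.57. Of 14 muscle fibre markers 9 had a measured probe set, among them Ckm, muscle creatine kinase, at 12.9 to 13.1 in every animal.

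Values are log2(intensity + 16) after quantile normalization, and a difference is the mean of the high-fat/high-fat group minus that of the high-fat/chow group on this log2 scale. With limma and Benjamini-Hochberg adjustment over all genes, 0 of 12642 genes passed an adjusted p of 0.05, so percent called was 0, and the smallest adjusted p was 0.245. Without adjustment, 1170 genes (9.25%) were under 0.05 by the same limma test, where 632.1 would be expected if no gene differed. Of these, 614 were higher (4.86% of genes tested) and 556 lower (4.4%) on the high-fat diet. In the table as deposited, where the median difference of all genes was 0.11, the split was 1725 higher and 37 lower, and with arrays centred on medians 871 and 289. With a covariate for the deposited medians 776 genes were under 0.05. Rhobtb1 differed by 0.63 with all animals (limma adjusted p = 0.245). Without high-fat/chow replicate 1, Rhobtb1 passed the adjusted p (0.81, limma adjusted p = 0.00285). That animal, at 10.21, lay within the high-fat-fed range of 10.19 to 10.38. Without high-fat/high-fat replicate 3, 396 genes were higher. The groups did not overlap for 261 genes that were higher (2.06%) and 260 that were lower (2.06%). The median difference over all genes was -0.0013, with quartiles at -0.079 and 0.078. Differences above 0.5 were found for 51 genes and below -0.5 for 16. No gene is therefore called changed below: values are given as measured, and an unadjusted p is named as such. With 4 animals against 4, an exact two-sided permutation test on 1 gene cannot go below 0.0286, the value reached by any gene whose groups do not overlap.

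Of the 5 largest differences of all genes, 3 belonged to genes of fat handling, Aqp7, Slc27a1 and Plin5. The others were Fos, an immediate early gene described with its list, and Pla2g7, a phospholipase that hydrolyses platelet-activating factor (1.08, SE 0.52, unadjusted p = 0.0510 by limma), whose groups overlapped. Plin5 (perilipin 5, probe set 10931038), which coats lipid droplets in oxidative tissue and joins them to mitochondria, had levels of 7.34, 7.18, 6.99 and 6.99 in the high-fat/chow animals and 8.24, 8.90, 7.99 and 7.62 in the high-fat/high-fat animals. The groups did not overlap, and the lowest high-fat-fed animal was replicate 4. The difference was 1.06 (SE 0.24, 95% confidence interval 0.56 to 1.56, 2.08-fold, limma unadjusted p = 0.000292, adjusted p = 0.245). Slc27a1 (10787313), a fatty acid transport protein that also activates the acids it imports, had 6.68, 7.43, 7.40 and 7.84 on chow and 8.36, 8.54, 8.79 and 8.21 on the high-fat diet. Again the groups stood apart, with a difference of 1.14 (SE 0.27, 2.20-fold, unadjusted p = 0.000502 by limma, adjusted p = 0.245). Aqp7 (10876060), a channel through which glycerol from lipolysis leaves the cell, had the largest difference of all genes, 1.41 (SE 0.36, 2.66-fold, limma adjusted p = 0.263). Its levels were 5.66, 6.75, 6.08 and 6.25 on chow and 7.94, 8.22, 7.68 and 6.53 on the high-fat diet, so that replicate 4 of the high-fat-fed animals lay below replicate 2 of the chow-fed ones. Acaa2, the last thiolase of mitochondrial beta-oxidation, differed by 0.59 (SE 0.18, unadjusted p = 0.00311 by limma).

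**Figure D1:**
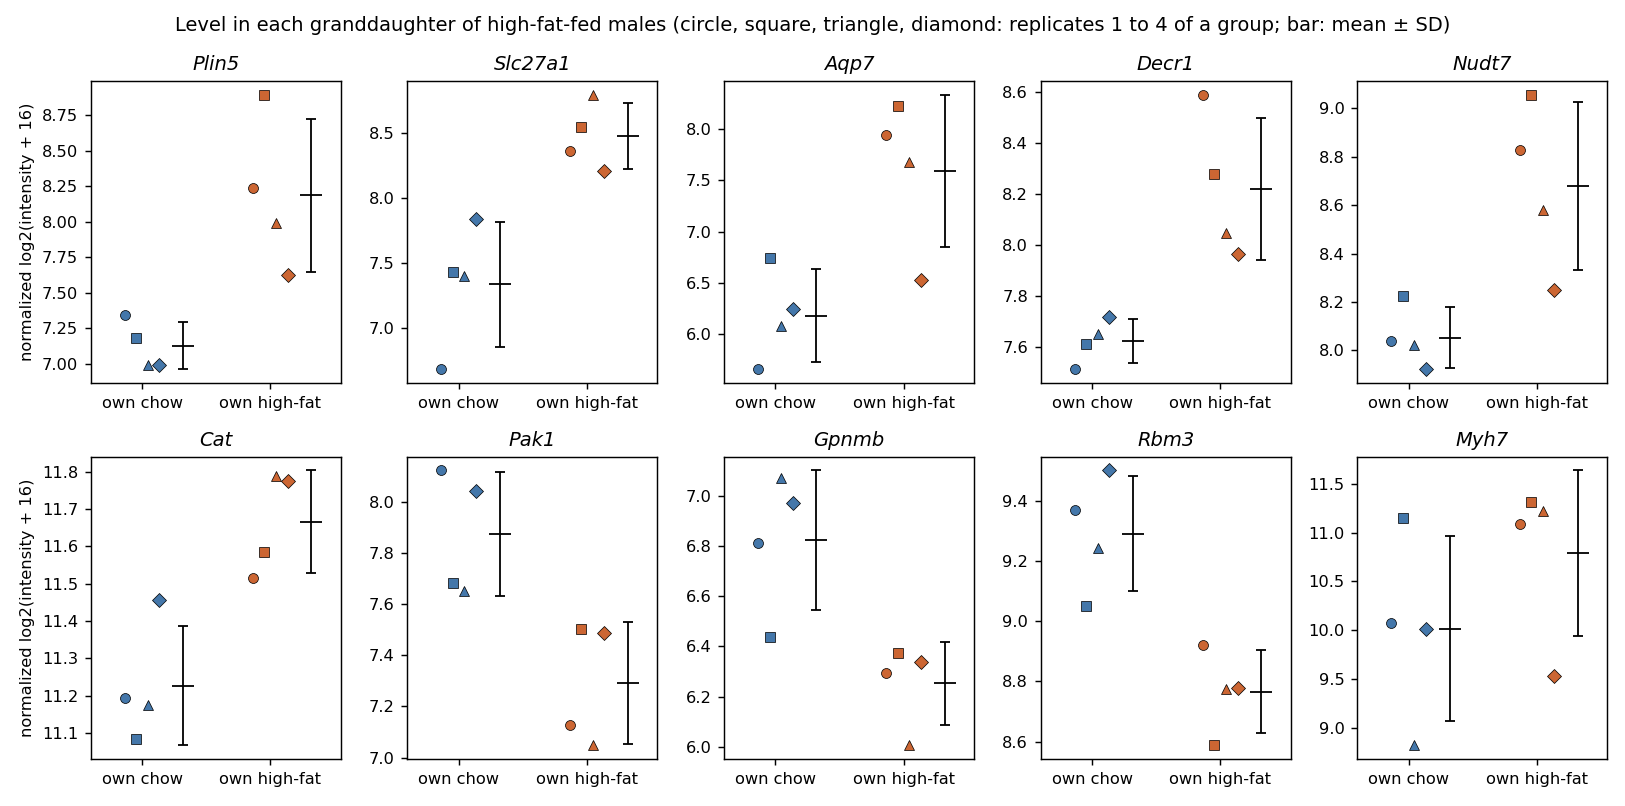
Normalized log2(intensity + 16), on its own y axis for each gene, of 10 genes in the 8 animals, with blue symbols for own chow and orange for own high-fat diet, and bars for mean and SD (n = 4). Plin5, Slc27a1, Decr1, Nudt7 and Cat stand higher and Pak1, Gpnmb and Rbm3 lower on the high-fat diet with no overlap, while the Aqp7 groups overlap by replicate 4 and the Myh7 groups overlap widely.

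To show what lies directly before the start of such genes, 250 upstream bases of RefSeq promoters (GRCr8) are printed for 3 of the 4 genes of the lipid lists described below that were higher at an unadjusted p under 0.05 and hold AGGTCA, the half-site that nuclear receptors of the PPAR family bind in tandem. They were chosen after their values were seen, the other one is Acad11, and the half-site stands in capitals, as TGACCT where the match is on the other strand. They are given 5' to 3' on the strand of the gene. Plin5 is from chr9:1033285-1033534, minus strand. Cat, which breaks down hydrogen peroxide in peroxisomes, is from chr3:110329527-110329776, minus strand. Slc25a34, a mitochondrial carrier, is from chr5:159219893-159220142, minus strand.
Plin5: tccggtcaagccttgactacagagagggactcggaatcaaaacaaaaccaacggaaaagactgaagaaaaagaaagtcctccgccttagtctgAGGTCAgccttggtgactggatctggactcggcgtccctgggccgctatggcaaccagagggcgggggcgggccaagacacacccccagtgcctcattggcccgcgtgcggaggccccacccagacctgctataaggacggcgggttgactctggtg
Cat: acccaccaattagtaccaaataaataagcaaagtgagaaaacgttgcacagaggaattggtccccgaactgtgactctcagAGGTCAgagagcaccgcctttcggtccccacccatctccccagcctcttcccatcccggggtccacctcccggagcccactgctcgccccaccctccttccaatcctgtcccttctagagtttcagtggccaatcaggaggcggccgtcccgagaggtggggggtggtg
Slc25a34: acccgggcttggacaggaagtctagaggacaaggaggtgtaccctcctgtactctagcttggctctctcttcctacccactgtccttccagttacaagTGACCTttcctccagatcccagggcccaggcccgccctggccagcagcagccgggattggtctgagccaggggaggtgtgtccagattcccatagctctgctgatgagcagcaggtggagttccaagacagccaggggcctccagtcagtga
Between the match and the start lie 151 bases in Plin5, 163 in Cat and 146 in Slc25a34. Of the promoters of the fatty acid responsive list, 5 of 19 found in the table held the half-site on either strand (26.3%), as did 5 of 20 of the mitochondrial oxidation list (25%), 6 of 32 of the peroxisomal list (18.8%), 3 of 15 of the lipid droplet list (20%) and 3 of 13 of the 15 higher genes of smallest p (23.1%). The share was 10.9% over the genes tested (1137 of 10389) and 13.7% over all 27457 promoters. The list shares count every member with a promoter, whatever its difference, and were not tested. Of the members of these lipid lists that hold the half-site, only Plin5, Cat, Slc25a34 and Acad11 were higher at an unadjusted p under 0.05. With the carnitine list, which was not searched, 37 lipid genes were higher at such a p. The list shares therefore do not describe the higher genes, whose own share was not taken. AGGTCANAGGTCA, the tandem spaced by 1 base, was in 0 promoters of these lists and in 15 of all. A match is a description of letters in a window and not a site of binding.

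Of the fatty acid responsive genes, a list of known targets of lipid signals in muscle, 22 of 26 measured members were higher and 15 were higher at an unadjusted p under 0.05, 57.7% of the list against 4.86% of all genes, while 0 were lower. The median difference was 0.36, against -0.0013 over all genes. This list, like the others, was chosen with earlier results of these data known, so its share is not independent support. It shares members, among them Decr1, Plin5 and Aqp7, with other lipid lists. Members named besides Plin5 and Aqp7 were Acot1 (0.53, SE 0.12), a cytosolic acyl-CoA thioesterase, and Decr1, with levels of 7.51, 7.61, 7.65 and 7.72 on chow and 8.59, 8.28, 8.05 and 7.96 on the high-fat diet. Decr1, a reductase that mitochondria need for unsaturated fatty acids, differed by 0.59 (SE 0.14, 1.51-fold), with the groups apart. Plin2, the perilipin of most cells, differed by 0.60 (SE 0.21). Pdk4, the kinase that shuts pyruvate dehydrogenase, was 12.21, 11.87, 12.09 and 11.62 on chow and 12.47, 12.43, 12.21 and 12.20 on the high-fat diet. That is a difference of 0.38 (SE 0.15, limma unadjusted p = 0.0214), with replicate 1 on chow level with the lower high-fat-fed animals. Angptl4, an inhibitor of lipoprotein lipase, differed by 0.75 (SE 0.43) and Ucp3, an inner mitochondrial membrane carrier, by 0.31 (SE 0.25), both short of an unadjusted p of 0.05. The titles also hold well names that the labels do not explain, and within well columns 5, 7 and 9 (1, 1 and 2 high-fat-fed animals against 2, 1 and 1 chow-fed) the list scores differed by 0.35, 0.12 and 0.64. Without high-fat/high-fat replicate 4 the list held 19 higher members at an unadjusted p under 0.05 and its median was 0.44. In whole muscle, a lower level of RNA per cell and fewer cells of a type cannot be told apart.

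Mitochondrial beta-oxidation showed 19 of 24 members higher, 12 at an unadjusted p under 0.05 (50%) and 0 lower, with a median of 0.25 (0.16 without high-fat/high-fat replicate 2). Acot2, a mitochondrial thioesterase, differed by 0.57 (SE 0.14); it and Acot1 are close paralogs, and probes may not separate them fully. Hadhb, the beta subunit of the trifunctional protein, differed by 0.28 (SE 0.07). The Hadhb levels were 11.28, 11.43, 11.36 and 11.25 on chow and 11.55, 11.67, 11.61 and 11.60 on the high-fat diet, with no overlap between the groups. Etfa, which hands electrons from acyl-CoA dehydrogenases on, differed by 0.31 (SE 0.08), and the alpha subunit gene Hadha by 0.30 (SE 0.11). The members lower than 0 were Acad9 (-0.19), Pcca (-0.14), Pccb (-0.07), Hsd17b10 (-0.01) and Echs1 (-0.01), of which the propionyl-CoA carboxylase subunits Pcca and Pccb act after oxidation of odd chains. In the carnitine shuttle and the control of malonyl-CoA, 11 of 12 members were higher and 1 was lower, at -0.30. The median was 0.16, or 0.09 without high-fat/high-fat replicate 2, and 5 members were higher at an unadjusted p under 0.05 (41.7%). These were Cpt1b (0.20, SE 0.06), the outer membrane palmitoyltransferase of muscle, Crat (0.23, SE 0.06), which buffers acetyl groups, Cpt2 (0.35, SE 0.11), the inner membrane enzyme, Slc25a20 (0.34, SE 0.13), the carrier between them, and Mlycd (0.44, SE 0.15), which removes malonyl-CoA. For Crat the levels were 12.00, 11.95, 12.01 and 12.01 on chow and 12.14, 12.30, 12.25 and 12.18 on the high-fat diet.

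Storage and peroxisomal genes were higher as well. In lipid droplets and lipolysis, 15 of 19 members were higher, 8 at an unadjusted p under 0.05 (42.1%) with a median of 0.22, and Pnpla2, the first lipase of triglyceride breakdown, differed by 0.27 (SE 0.09). Its inhibitor G0s2 differed by 0.72 (SE 0.32) and Dgat1, which makes triglyceride, by 0.22 (SE 0.08). Of 35 peroxisomal enzymes and membrane proteins 26 were higher, 9 at an unadjusted p under 0.05 (25.7%), with a median of 0.07 (0.11 without high-fat/high-fat replicate 1). Cat had levels of 11.19, 11.08, 11.18 and 11.46 on chow and 11.52, 11.59, 11.79 and 11.78 on the high-fat diet, a difference of 0.44 (SE 0.092, 1.36-fold). Nudt7, which hydrolyses coenzyme A in peroxisomes, differed by 0.63 (SE 0.15), Hsdl2 by 0.38 (SE 0.09) and the membrane protein gene Pxmp4 by 0.34 (SE 0.08). In uptake and activation, 3 of 17 members were higher at an unadjusted p under 0.05 (17.6% against 4.86% of all genes). They were Slc27a1, Acsl1 (0.41, SE 0.14), the main acyl-CoA synthetase of muscle, and Got2 (0.12, SE 0.06). The list median was 0.05, or 0.13, 0.10, 0.10, 0.09 and 0.10 without high-fat/chow replicates 1, 2 and 4 and high-fat/high-fat replicates 2 and 4, and the count of 3 was 1 without high-fat/high-fat replicate 2 and 5 without replicate 4. Cd36 and Fabp3 had no measured probe set here. Across the 5 lipid lists (responsive, oxidation, carnitine, droplet and peroxisomal, which share members), 37 of 100 genes were higher at an unadjusted p under 0.05 (37%) and 0 lower.

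**Figure D2:**
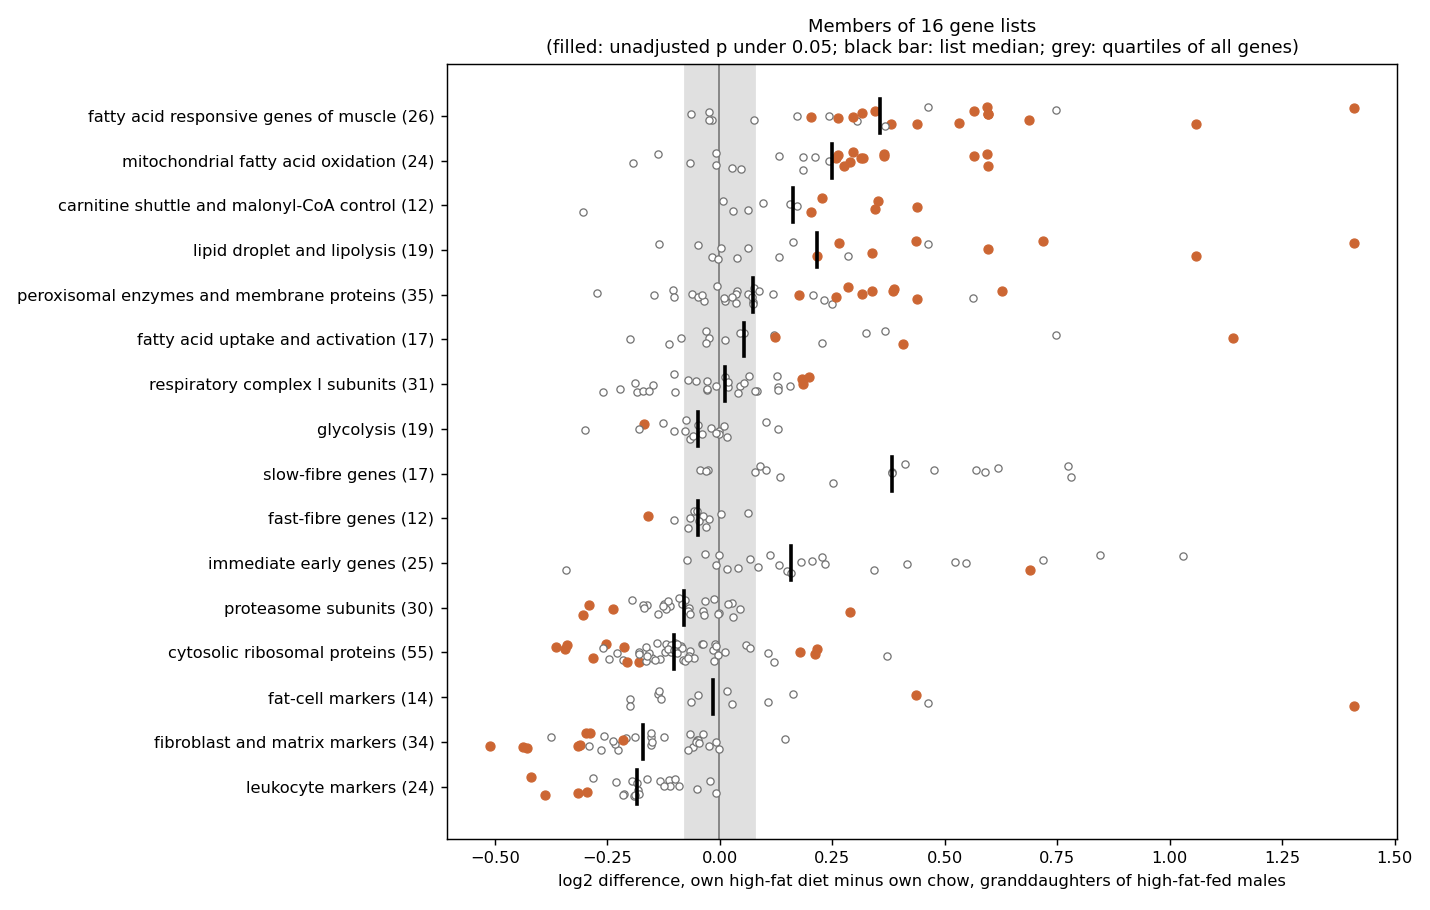
Each point is 1 measured gene, placed by its log2 difference (high-fat/high-fat minus high-fat/chow), in rows for 16 lists with the number of measured members in brackets; vertical scatter carries no value. The medians of the fatty acid responsive and mitochondrial oxidation lists, 0.36 and 0.25, lie right of the grey quartile band of all genes, and those of the leukocyte and fibroblast lists, -0.18 and -0.17, lie left of it.

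Energy pathways outside fat oxidation had medians within the quartiles of all genes. Respiratory complex I subunits had 16 of 31 members higher with a median of 0.01, and the tricarboxylic acid cycle 9 of 17 (0.01). Complexes II to V had 16 of 41 higher (-0.04) and glycolysis 4 of 19 (-0.05), where 49.6% of all genes were higher. At an unadjusted p under 0.05, 1 glycolysis member was lower (5.26% against 4.4% of all genes). Ldha, which makes lactate, differed by -0.17 (SE 0.06), and by -0.04 in its other probe set. Slc2a4, the insulin-responsive glucose transporter, was 11.32, 11.10, 11.20 and 11.15 on chow and 11.19, 10.97, 10.77 and 10.76 on the high-fat diet, a difference of -0.27 (SE 0.10, limma unadjusted p = 0.0152). High-fat/high-fat replicate 1 stood within the range of the chow-fed group. Sterol synthesis and fatty acid synthesis held 1 member each higher at an unadjusted p under 0.05 (5.56% and 5.88%, near the 4.86% of all genes). These were Fdps (0.19) and Agpat2 (0.82, SE 0.26). Scd, the desaturase, differed by -0.21 (SE 0.28). Bdh1, a mitochondrial enzyme of ketone use, differed by 0.79 (SE 0.27), with replicate 4 of the high-fat-fed animals inside the chow-fed range.

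Slow-fibre genes, which mark fibres that contract slowly on oxidative metabolism and are few in this muscle, had 14 of 17 members higher and the largest list median, 0.38, but 0 at an unadjusted p under 0.05. Myh7, the slow myosin heavy chain, had levels of 10.08, 11.15, 8.82 and 10.02 on chow and 11.09, 11.32, 11.22 and 9.53 on the high-fat diet, a difference of 0.77 (SE 0.44, limma unadjusted p = 0.0970). One high-fat-fed animal, replicate 4, was lower than 3 of the chow-fed animals, and 1 chow-fed animal, replicate 2, was as high as the other high-fat-fed ones. The list score (mean of centred log2 levels) was -0.91 in high-fat/high-fat replicate 4 against 0.19 to 0.46 in the others, and 0.34 in high-fat/chow replicate 2 against -0.63 to -0.43. Every animal left out moved the median. It was 0.17 to 0.18 without high-fat/chow replicate 1, 3 or 4 and 0.21 to 0.24 without high-fat/high-fat replicate 1, 2 or 3, with 0 members at an unadjusted p under 0.05 by limma in each case. It was 0.60 without high-fat/chow replicate 2, with 3 such members, and 0.66 without high-fat/high-fat replicate 4, with 17 of 17 higher and 9 at an unadjusted p under 0.05. In the chow lineage the median was -0.28. Fast-fibre genes had a median of -0.05, and the muscle fibre markers measured, 9 of 14, had one of -0.01. The share of this list in the differences of the lipid genes was not tested. Within well columns 5, 7 and 9 the slow-fibre score differed by 0.33, -0.36 and 0.81 and the mitochondrial oxidation score by 0.10, 0.09 and 0.39. For mitochondrial oxidation the score of replicate 4, -0.12, lay within the chow-fed range of -0.21 to -0.01, while the other high-fat-fed animals had 0.05 to 0.28.

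**Figure D3:**
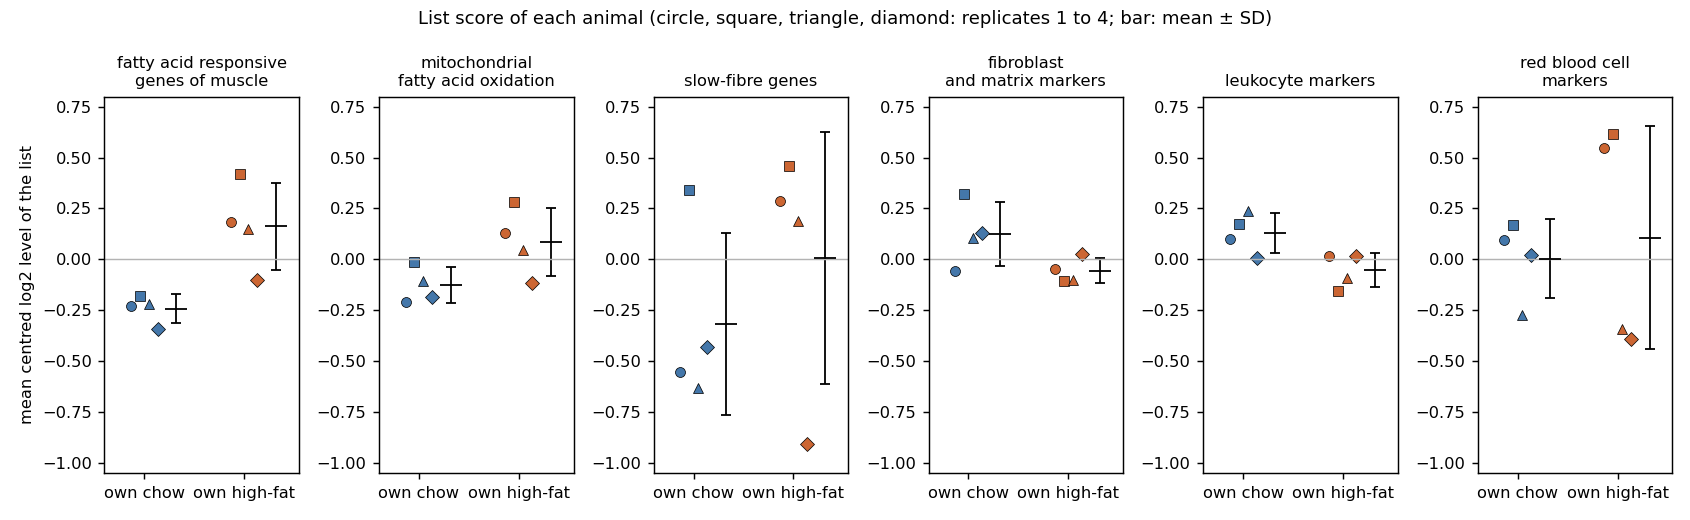
List score of each animal, the mean of the log2 levels of the members after centring each gene over all 18 arrays, for 6 lists, with mean and SD (n = 4). The fatty acid responsive score lies from -0.34 to -0.18 on chow and from -0.10 to 0.42 on the high-fat diet, and the diamond of replicate 4 is the lowest high-fat-fed animal in the first 3 panels.

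The genes of smallest p held others besides those of fat handling. Of the 15 higher genes, 4 belonged to the lipid lists (Plin5, Cat, Acot1 and Decr1), and the others included Dennd6b (0.37, SE 0.07), Znfx1 (0.29, SE 0.06), an RNA helicase-like protein, Tlr3 (0.42), a receptor for double-stranded RNA, Wars2 (0.71, SE 0.16), the mitochondrial tryptophanyl-tRNA synthetase, Dpp3 (0.50, SE 0.11), a peptidase, and Fdx2 (0.42), a ferredoxin of iron-sulfur cluster assembly. For Znfx1 the levels were 7.47, 7.52, 7.50 and 7.55 on chow and 7.71, 7.83, 7.86 and 7.80 on the high-fat diet. The 15 lower genes included Pak1, a kinase of the actin cytoskeleton, with 8.12, 7.68, 7.65 and 8.04 on chow and 7.13, 7.50, 7.05 and 7.49 on the high-fat diet (-0.58, SE 0.12, 1.50-fold lower), and Rbm3, a cold-induced RNA-binding protein (-0.52, SE 0.11). Gpnmb, a glycoprotein of macrophages and other cells, differed by -0.57 (SE 0.13). Selenow, a selenoprotein abundant in muscle, differed by -0.42, and Eif4e, the cap-binding protein of translation, by -0.33. Groups stood apart for 14 of the 15 higher and 14 of the 15 lower genes, which were chosen by their p. The largest differences below were Ankrd1 (-0.86, SE 0.37), a stretch-responsive muscle protein, and Armc2 (-0.78, SE 0.22). The other Armc2 probe sets were at 0.08, 0.10 and -0.06. Fam111a had levels of 4.38, 4.55, 7.32 and 8.02 on chow and 4.36, 4.54, 4.52 and 7.86 on the high-fat diet, low in some animals and high in others of both groups, and differed by -0.75 (SE 0.96).

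Leukocyte and fibroblast markers had lower levels on the high-fat diet, and this was not particular to this lineage. In the chow lineage the leukocyte median was -0.16, with 20 of 24 markers lower. The fibroblast and matrix median there was -0.13, with 32 of 34 lower. Endothelial markers had a median of -0.01, which was 0.04 without high-fat/high-fat replicate 3. Vessel-wall markers had 10 of 14 higher, 3 at an unadjusted p under 0.05 (21.4% against 4.86%) and 0 lower. These were Cnn1 (0.28, SE 0.10) and Myh11 (0.20, SE 0.10), of smooth muscle, and Abcc9 (0.28, SE 0.12), a potassium channel subunit. The groups overlapped for each of them, and the other Abcc9 probe set differed by 0.04. The vessel-wall median was 0.03, and ran from 0.02 without high-fat/chow replicate 1 to 0.12 without high-fat/chow replicate 2 or high-fat/high-fat replicate 3. The count of 3 was 1 without high-fat/chow replicate 3 or high-fat/high-fat replicate 3 or 4. Of leukocyte markers, 24 of 24 measured members were lower, 4 at an unadjusted p under 0.05 (16.7% against 4.4%), with a median of -0.18; Ctss, a lysosomal protease of macrophages, differed by -0.42 (SE 0.14), Cybb, an oxidase subunit, by -0.39 (SE 0.15), and the macrophage markers Cd68 and Mrc1 by -0.31 (SE 0.11) and -0.30 (SE 0.13). Ctss had levels of 7.67, 7.49, 7.77 and 7.15 on chow and 7.13, 7.04, 7.04 and 7.18 on the high-fat diet. Without high-fat/high-fat replicate 2 the count of 4 was 1. The summed normalized intensity of the list ran from 3389 to 4032 on chow and from 2945 to 3384 on the high-fat diet. Of fibroblast and matrix markers, 33 of 34 were lower, 8 at an unadjusted p under 0.05 (23.5%), with a median of -0.17. Dpt, dermatopontin of the matrix, was 10.12, 10.47, 10.23 and 10.24 on chow and 10.07, 9.76, 9.72 and 9.79 on the high-fat diet, a difference of -0.43 (SE 0.11), and Col1a1 differed by -0.51 (SE 0.22). The count of 8 was 3 without high-fat/chow replicate 2, 4 without high-fat/high-fat replicate 3, and 5 without either high-fat/chow replicate 4 or high-fat/high-fat replicate 2. The summed intensity was 21625 to 26513 on chow and 19236 to 21883 on the high-fat diet. The list scores differed by -0.31, 0.09 and -0.21 within well columns 5, 7 and 9 for fibroblasts, and by -0.30, -0.08 and -0.07 for leukocytes. In the table as deposited the medians were -0.06 and -0.07, relative to a shift of all genes by 0.11, and the median minus that of all genes stayed at -0.17 and -0.19. Fat-cell markers had 7 of 14 higher, 2 at an unadjusted p under 0.05 (14.3%) and 0 lower. These were Aqp7 and Lipe, the hormone-sensitive lipase (0.44, SE 0.16), both also in lipid lists above. The fat-cell median was -0.02, but 0.01 without high-fat/high-fat replicate 3 and 0.44 with a filter at the 50th percentile, which left 5 markers. Adipoq, a hormone of fat cells, differed by -0.14 (SE 0.29); Lep and Ucp1 had no measured probe set. The summed intensity of the fat-cell list was 2169 to 2552 on chow and 2206 to 3072 on the high-fat diet. The part of these cells in the differences of other genes was not tested.

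Ribosomal proteins of the cytosol had 46 of 55 members lower, 8 at an unadjusted p under 0.05 (14.5% against 4.4% of all genes), and 3 higher at such a p (5.45% against 4.86%), with a median of -0.10, and proteasome subunits had 25 of 30 lower (median -0.08). In the table as deposited these medians were 0.01 and 0.06, so both directions flip with the scaling, and after the shift of all genes is taken off they are -0.10 and -0.06. The count of 8 lower cytosolic members was 1 and 2 without high-fat/high-fat replicates 4 and 3, 17 without replicate 1, 5 without replicate 2, 4 without high-fat/chow replicate 2, and 5 without high-fat/chow replicate 3 or 4. Ribosomal protein genes have many near-identical copies, which the probe sets may not tell apart. Rpl39 differed by -0.36 (SE 0.14), and its high-fat-fed levels of 11.80, 11.48, 11.09 and 10.99 spread more than the chow-fed levels of 11.61, 11.74, 11.62 and 11.84. Mitochondrial ribosomal proteins had 37 of 63 higher, with 6 higher at an unadjusted p under 0.05 (9.52%); without high-fat/chow replicate 1 that was 3, and without high-fat/chow replicate 2 or high-fat/high-fat replicate 2 it was 4. Mrpl47 had 9.28, 9.47, 9.72 and 9.08 on chow and 9.90, 9.96, 10.03 and 9.99 on the high-fat diet, a difference of 0.58 (SE 0.15). Immediate early genes, which respond within minutes to stimulation or handling, had 20 of 25 higher, where 49.6% of all genes were higher. Only 1, Nr4a3 (0.69, SE 0.32), was higher at an unadjusted p under 0.05 (4% against 4.86% of all genes). That count was 0 to 3 with each animal left out. Fos, a transcription factor of this kind, had 5.76, 6.24, 6.56 and 5.86 on chow and 7.18, 6.86, 6.67 and 7.84 on the high-fat diet, a difference of 1.03 (SE 0.56) with the groups apart. Red blood cell markers had a score of 0.55 and 0.62 in high-fat/high-fat replicates 1 and 2 and of -0.34 and -0.39 in replicates 3 and 4, with replicates 1 and 2 in well column 9. The fatty acid responsive score was 0.18, 0.42, 0.15 and -0.10 in replicates 1 to 4, and the part of the red cell markers in it was not tested.

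The comparison was set against the same change of diet in the chow lineage, which shares no animals with it. There, 0 of 12642 genes passed an adjusted p of 0.05 (limma, percent called 0, 607 at an unadjusted p under 0.05), and the smallest was 0.225; 315 genes were higher at an unadjusted p under 0.05 (2.49%) and 292 lower (2.31%). Over all genes the 2 sets of differences had a Pearson correlation of 0.019, a description over genes that are not independent. Of the 1170 and 607 genes under an unadjusted p of 0.05, 95 were shared, 8.12% and 15.7% of each set: 48 were higher in both, 23 lower in both and 24 opposite. Over all genes, 4.8% were under it in the chow lineage and 9.25% here. Of the genes higher and lower here at such a p, 45.3% and 44.6% had the same sign there, where 48.6% of all genes were higher and 51.4% lower. Of the 48 genes higher in both, 22 were in the 5 lipid lists, which hold 100 of the 12642 genes. In those lists, 27 of 100 genes were higher in the chow lineage at an unadjusted p under 0.05 (27%), against 37 here, and the medians were 0.087 and 0.17. Decr1 differed by 0.58 in the chow lineage and 0.59 here, and Nudt7 by 0.63 in both. Plin5 differed by 0.58 against 1.06 and Slc27a1 by 0.39 against 1.14. Some lipid genes had a smaller or opposite difference there. Acot1 differed by -0.01 in the chow lineage against 0.53, Etfa by -0.03 against 0.31, Cat by 0.11 against 0.44 and Plin2 by -0.08 against 0.60. For each of them high-fat/chow had the lowest mean of the 4 groups. For Cat it was 11.23, against 11.53 in chow/chow, 11.64 in chow/high-fat and 11.67 in high-fat/high-fat. For Acot1 it was 5.61, against 5.92, 5.90 and 6.14 in the same order. The part of these low levels in the differences was not tested. The difference between the lineages was 0.48 (SE 0.32, unadjusted p = 0.149 by limma) for Plin5 and 0.75 (SE 0.37, unadjusted p = 0.0535 by limma) for Slc27a1.

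**Figure D4:**
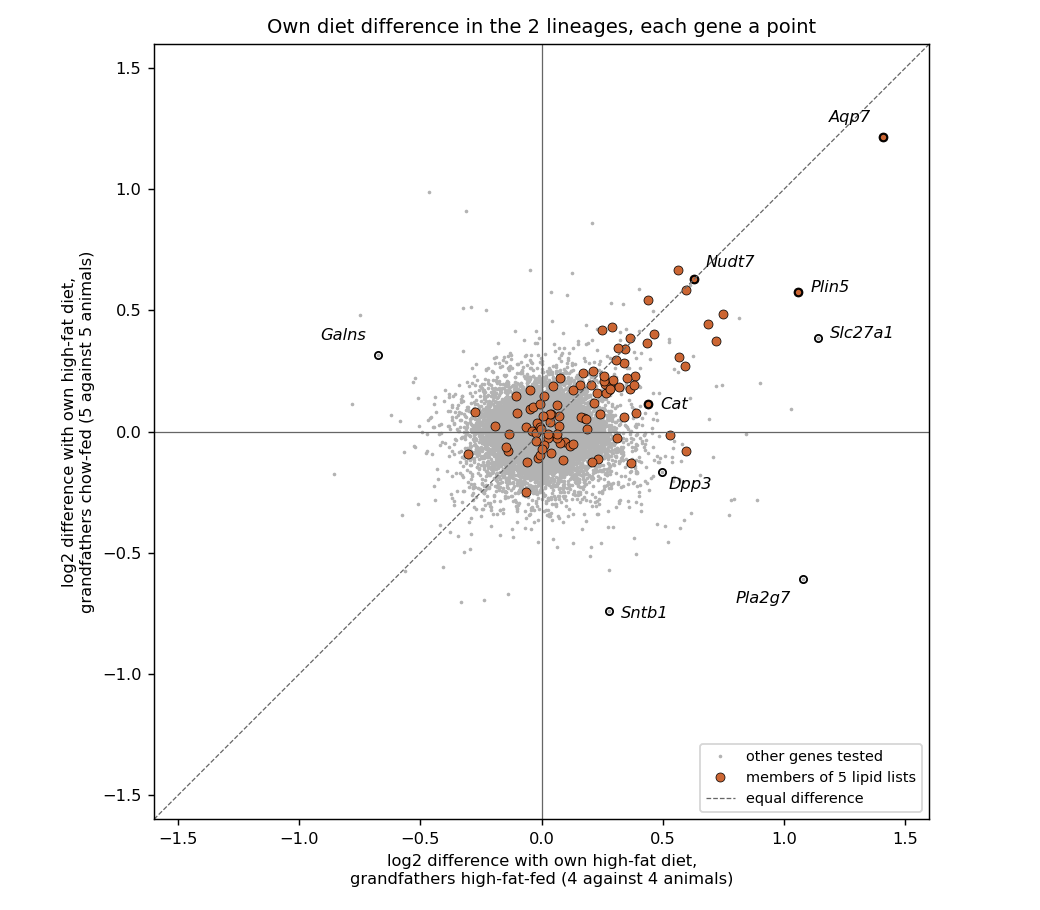
Each point is 1 gene, with the log2 difference for own high-fat diet against own chow in the granddaughters of high-fat-fed males on the x axis and of chow-fed males on the y axis. Orange points, the 100 genes of 5 lipid lists, extend toward the upper right, where Aqp7 lies at 1.41 and 1.22, while the cloud of all genes has a correlation of 0.019.

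The difference itself was tested as an interaction of lineage and own diet. It passed for 0 genes at an adjusted p of 0.05 (percent called 0, smallest limma adjusted p = 0.546), with 863 genes (6.83%) under 0.05 without adjustment. The 6 of smallest p were Slc13a1, Dpp3, Sntb1, Dgkz, C8h3orf62 and Znfx1. Slc13a1 and C8h3orf62 had group means of 5.53 to 5.92 and 5.61 to 5.91, near the lower limit for testing of 5.28. Dpp3 differed by 0.50 here and -0.17 in the chow lineage, an interaction of 0.66 (SE 0.15), and Sntb1, a syntrophin of the dystrophin complex, by 0.28 and -0.74, an interaction of 1.02 (SE 0.22). In the table as deposited, Sntb1 passed (1.31, adjusted p = 0.0364 by limma). There, 3671 genes were under an unadjusted p of 0.05 for the interaction, against the 863 after normalization. Chow/high-fat replicates 4 and 5 had deposited medians of 56.98 and 55.02, against 66.29 to 70.52 in chow/chow. Dgkz, a diacylglycerol kinase, differed by -0.33 and 0.33, and its other probe sets here were at 0.04 and 0.24. Of the 100 lipid genes, 7 were under an unadjusted p of 0.05 for the interaction (7%), next to 6.83% of all genes. They were Acot1 (0.54, SE 0.16, unadjusted p = 0.00330 by limma, adjusted p = 0.649), Etfa, Cat, Plin2, Pex3, Nudt12 and Pex13. Acot1 also lay near the limit of 5.28, with high-fat/chow levels of 5.51 to 5.68. Of the 15 higher and the 15 lower genes of smallest p in this lineage, 11 and 14 were under an unadjusted p of 0.05 for the interaction. These genes were chosen by their p here.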

How the data were processed

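Muscle RNA of 18 rats (200 ng each) was hybridized to Affymetrix whole-transcript arrays, of which 8 form the comparison. The deposited table holds linear intensities of 20917 probe sets, made by the authors with Affymetrix Expression Console and PLIER per the submitters' processing notes; versions and settings are not given in the sources used here. Gene names came from the platform table: 18197 probe sets had 1 symbol, 960 several and 1760 none (16856 distinct symbols).

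Intensities were taken as log2(intensity + 16) and quantile normalized (limma 3.58.1, R 4.3.3). For each symbol the probe set of highest mean was kept, and genes with a mean over all 18 arrays above the 25th percentile (5.28 log2) were tested, 12642 in all. In limma, lmFit and eBayes fitted the 4 group means on the 18 arrays together, and two-sided p-values were adjusted with Benjamini-Hochberg over all genes within a comparison at 0.05. The fit was tested on simulated data. The number of arrays limits the precision, and replicates are numbered in record order. Over 12 pairs of arrays within the groups compared, log2 values differed with an SD of at least 0.199, and at most 0.0908% of values were identical.

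Named genes are the 15 of smallest p in each direction, the 5 largest and 5 smallest differences, up to 4 members of each list, a fixed panel and the 6 smallest interaction p-values; others named from the lists were picked after their values were seen. The members and lists were chosen with earlier results of these data known. A list is described by counts and its median, with no test.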

Additional observations from a re-analysis of the deposited data

Results flagged for a closer look

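Single animals stood far from the other 3 of their group in 14 of 314 groups of 4 examined (4.46%), where chance alone gives about 1 in 20. The value is the gap to the nearest animal divided by the range of the group. In the high-fat/high-fat group, replicate 4 was apart for Myh7, the slow myosin heavy chain (low, 0.871), Fam111a (high, 0.948) and Rpl7a (low, 0.939). Replicate 2 was apart for the desaturase Scd (low, 0.967) and for Got2 (high, 0.868), replicate 1 for Dcaf5 (low, 0.877) and Rps7 (high, 0.885), and replicate 3 for Pqbp1 (low, 0.923). In the high-fat/chow group, replicate 4 was apart for Angptl4, the lipase inhibitor (low, 0.845), Atp5me (high, 0.833) and the tricarboxylic acid cycle score (low, 0.837). Replicate 2 was apart for Crat (low, 0.856) and Cpt2 (high, 0.84), and replicate 1 for Fech, the last enzyme of haem synthesis (low, 0.895).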

How the results depend on the processing

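Each of the 114 named genes kept its sign in those of the 21 other settings that measured it, and 23 of 43 lists kept the sign of their median relative to all genes. The count of genes at an unadjusted p under 0.05 was 1762 in the table as deposited (1725 higher, 37 lower, with the median of all genes at 0.11), while arrays centred on medians gave 871 higher and 289 lower. It was 776 with a covariate for the deposited medians, and 396 genes were higher without high-fat/high-fat replicate 3. The interaction passed for 1 gene as deposited, Sntb1, where 3671 genes were under an unadjusted p of 0.05 for it, against 863 after normalization. The list medians minus that of all genes became -0.105 for fast-fibre genes and -0.0866 for muscle fibre markers both as deposited and with centred arrays, and 0.439 for fat-cell markers with a filter at the 50th percentile. With each animal left out, 0 to 1 genes passed adjustment. That 1 was Rhobtb1, without high-fat/chow replicate 1, whose level lay within the high-fat-fed range (0.81, limma adjusted p = 0.00285, and 0.00285 to 0.623 over all animals left out). The relative list medians then ran from 0.0915 to 0.233 for the carnitine shuttle, -0.030 to 0.00496 for glycogen, -0.0294 to 0.0336 for insulin signalling, -0.0649 to -0.0231 for fast fibres, -0.0379 to 0.0585 for clock genes, -0.0269 to 0.0515 for endoplasmic reticulum stress, 0.0179 to 0.125 for the vessel wall and 0.000760 to 0.0486 for nerve. The causes were not tested. No paired analysis was possible because the labels give the groups no shared replicate numbers. Blocks made from other numbers in the titles were fitted instead. With the well column as a block 0 genes passed and 1540 were at an unadjusted p under 0.05 by limma (780 higher, 760 lower), and with neighbouring animal numbers as a random block (3 pairs in this lineage, consensus correlation 0.126) 0 genes passed and 1391 were at an unadjusted p under 0.05 by limma.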

Other observations

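Some genes outside the comparison's main groups had values worth a second look, all chosen after they were seen. Alb, the plasma protein albumin made by liver, was at 9.87 in high-fat/high-fat replicate 4 against 6.28 to 6.98 in the other high-fat-fed animals and 6.27 to 7.54 in the chow-fed ones. Mbp, a protein of myelin, had 5.77, 5.96, 6.06 and 5.98 on chow and 6.39, 6.36, 6.32 and 6.40 on the high-fat diet (0.43, SE 0.13, limma adjusted p = 0.353), and -0.01 was its difference in the chow lineage. The other Mbp probe set differed by 0.06 here. Ifi27, an interferon-stimulated gene, differed by -0.58 (SE 0.17) here and by -0.34 in the chow lineage. Sod3, the extracellular superoxide dismutase, differed by 0.40 (SE 0.11) with the groups apart, and by -0.01 in the chow lineage. Its high-fat-fed levels here were 11.02, 11.03, 11.47 and 11.55 in replicates 1 to 4, and the highest chow-fed level was 10.95.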
